A study of Mus musculus with 36 samples.

Results

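The genes described here encode the proteins that make ribosomes, as distinct from the proteins that ribosomes are built of. They are 40 listed symbols, of which 39 were rows in the deposited count tables of 21516 genes, and Noc2l was the symbol without a row. All 39 passed the filter on low counts that left 13498 genes for testing, and the member with the fewest reads had 3389 over the 36 libraries.

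Ribosome production starts in the nucleolus, where RNA polymerase I transcribes the long precursor of the ribosomal RNAs. Small nucleolar RNA-protein particles (snoRNPs) of the box C/D type place methyl groups on this precursor and those of the box H/ACA type convert uridines to pseudouridine, while large assemblies fold and cut it into the precursors of the small and large subunits. Embryonic stem cells divide fast and are known for large nucleoli and high output of ribosomes, and many of these genes are known targets of the transcription factor Myc.

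RNA came from FUCCI cells, a mouse embryonic stem cell line of 129/sv origin with transgenic reporters of cell cycle phase. All 12 conditions ran for 72 h and were sequenced as 3′ RNA tags in 3 libraries each, which the labels call biological experiments, so every mean ± SD has n = 3. The p-values measure the spread between such libraries of 1 cell line, pooled over all 12 conditions. They therefore do not measure the spread of the sorbitol libraries alone. The base medium held 15% serum and 1000 U/mL of leukemia inhibitory factor (LIF), the cytokine that keeps mouse embryonic stem cells self-renewing. NS is that medium alone (normal stemness), ND the same without LIF (normal differentiation), and RA is without LIF and with 1 µM retinoic acid, a differentiation signal. Sorb300 kept LIF and received 300 mM sorbitol, a sugar alcohol that raises osmotic pressure. The other 8 conditions kept LIF and received a toxicant: BP at 1 or 4 µM, cortisol at 10 or 60 µM, DEP at 5 or 10 µM, or perfluorooctanoic acid (PFOA) at 60 or 100 µM. BP and DEP are written as in the labels, and per the series' design text each agent was given at the smallest amount that impaired growth and at its IC75, a strongly suppressive concentration. In such bulk RNA fewer cells of a type and less RNA per cell cannot be told apart.

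Each library held between 1848254 and 7288084 counts (median 4822563). The members took 0.891% to 1.57% of the counts of a library. Sorbitol library 1 stood apart from the other 2 sorbitol libraries: 19.5% of the 8466 genes that averaged at least 10 CPM, counts scaled to a common library size, lay more than 2-fold above or below both of them, against 1.85% and 2.1% for libraries 2 and 3. Among the members 10 did so. Gnl3, Ncl, Nop58 and Npm1 were over 2-fold higher in library 1, and Bop1, Grwd1, Nhp2, Pes1, Rrp12 and Rrp9 were over 2-fold lower in it. The counts of members called with sorbitol, and the members named for it where the value moved most, are therefore given also without that library. Such counts come without the share of all genes called in the same fit. The 75 genes of cytosolic ribosomal proteins took 14.0% to 17.7% of counts in NS, 8.19% to 9.98% in RA and 8.65% to 10.3% in Sorb300.

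Most members called with sorbitol rose and all members called with retinoic acid fell. In the fit used throughout, the removal of LIF alone and the 8 toxicant conditions left all 39 short of the threshold. A fit that also took account of the library number called 1 member with the removal of LIF, as given below. Against NS, 15 members rose and 3 fell with sorbitol, and 21 fell and 0 rose with retinoic acid (edgeR quasi-likelihood test, Benjamini-Hochberg adjusted p under 0.05 over all genes tested). Of all genes tested, 15.1% were called higher and 15.2% lower with sorbitol (30.4% together), and 10.3% higher and 13.8% lower with retinoic acid. The unadjusted p that passes depends on how many genes are called, so it differed between comparisons. Nip7 passed with sorbitol at an unadjusted p of 0.0124, and Rrp9 in ND did not pass at 0.00528. Counts of calls are therefore not a like measure of change across conditions. The median log2 fold change of the members was 0.45 with sorbitol, with 26 of 39 above 0, and -0.60 with retinoic acid, with 1 of 39 above 0. The medians of all genes tested were 0.0040 and -0.0011. Both comparisons use the same NS libraries. RA also lacked LIF, which NS and Sorb300 held. A change with retinoic acid against NS or Sorb300 therefore covers both differences together. Without sorbitol library 1 the sorbitol counts were 16 higher and 5 lower and the median was 0.43. The count of 18 called members became 9 without NS library 2, 11 without NS library 3, 10 without sorbitol library 2 and 12 without sorbitol library 3, and 7 of the 18 were called in every fit that left out 1 library. The count of 21 for retinoic acid became 12 without NS library 1 and 12 without RA library 3, and 10 of the 21 were called in every such fit. A fit of only the 2 groups called 6 members with sorbitol, namely Bop1, Grwd1, Nop2, Npm1, Polr1a and Polr1b. Every other sorbitol call was lost in it. That fit takes its spread from those 2 groups, while the main fit pools all conditions. Dropping library 3 of each group left 10 sorbitol calls. Raw library totals left 11 calls with retinoic acid.

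**Figure D1:**
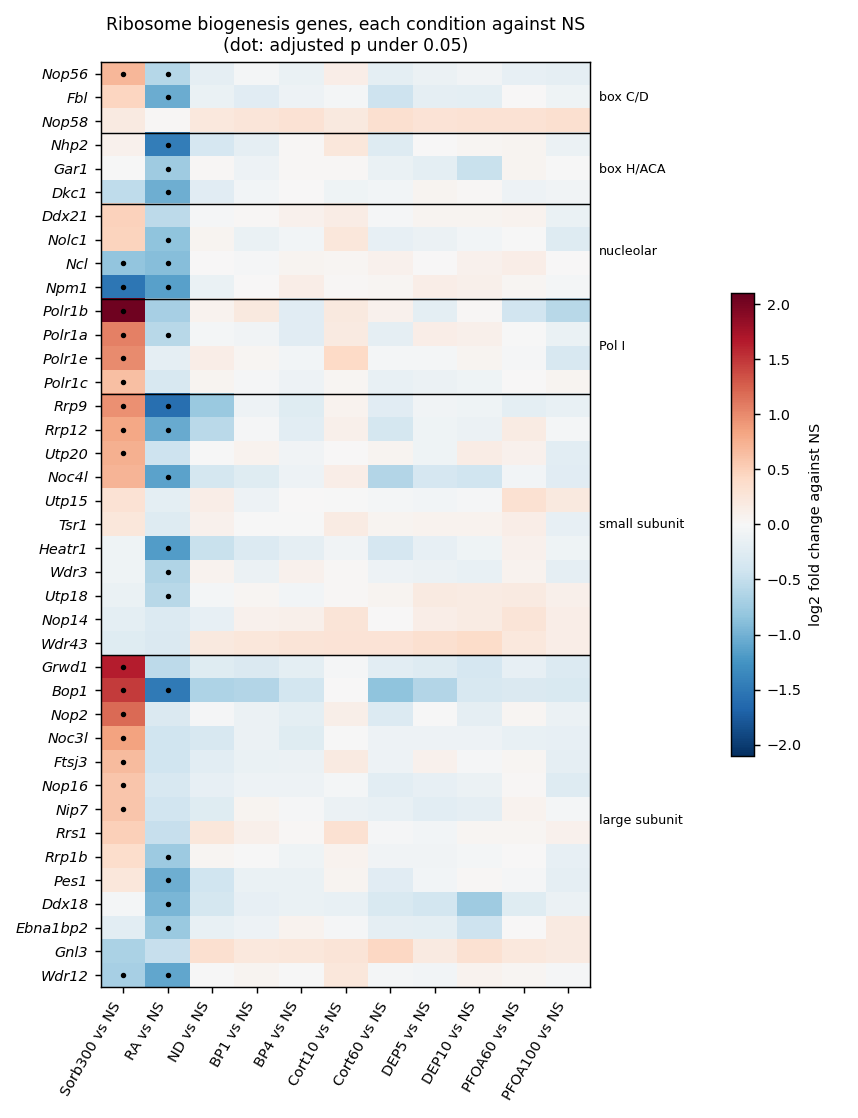
Log2 fold change of each of the 39 members (rows, grouped by role) in each of the 11 conditions against NS (columns), on a colour scale from blue (lower) to red (higher); a dot marks an adjusted p under 0.05. Dots stand in the sorbitol and retinoic acid columns only, 18 and 21 of them, and the columns of ND and the 8 toxicant conditions hold none.

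The pair of treatments divided the members into 5 patterns. Bop1, Nop56, Polr1a, Rrp12 and Rrp9 were called higher with sorbitol and lower with retinoic acid. Another 10 were called higher with sorbitol and were not called with retinoic acid, namely Ftsj3, Grwd1, Nip7, Noc3l, Nop16, Nop2, Polr1b, Polr1c, Polr1e and Utp20. Only Ncl, Npm1 and Wdr12 were called lower in both. A further 13 were called lower with retinoic acid alone, and 8 were called in neither, namely Ddx21, Gnl3, Nop14, Nop58, Rrs1, Tsr1, Utp15 and Wdr43. A call in 1 comparison and not in the other does not show a difference, so sorbitol was also compared with retinoic acid directly. Those groups differ in LIF too, which Sorb300 kept and RA lacked.

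In that direct comparison 27 members were higher with sorbitol and 0 lower, where 20.6% and 17.5% of all genes were called higher and lower. The median member log2 fold change was 1.03 against 0.0056 over all genes, and 37 of 39 were above 0. The libraries of the groups did not overlap for 29 members, all higher with sorbitol, and 24.1% of all genes were of that kind. Bop1 differed most, 7.75-fold (log2 fold change 2.95 ± 0.36 SE, adjusted p = 7.47e-08), followed by Polr1b at 6.71-fold and Rrp9 at 5.80-fold. Of the 27 calls 25 held in every fit that left out 1 library. The exceptions were Gar1, whose adjusted p reached 0.209, and Wdr3, whose adjusted p reached 0.226. Gar1 was lost without RA library 2, RA library 3 or sorbitol library 2, and Wdr3 without RA library 3 or any single sorbitol library. Without sorbitol library 1, 26 members were higher and 2 lower with sorbitol than with retinoic acid. The lower ones were Npm1 at a log2 fold change of -0.99 ± 0.25 (adjusted p = 0.00162) and Gnl3 at -0.74 ± 0.29 (adjusted p = 0.0363), neither of which was called with all libraries.

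By role, the 4 polymerase I members were higher with sorbitol than with retinoic acid by log2 fold changes of 1.64 ± 0.22 for Polr1a, 2.75 ± 0.46 for Polr1b, 0.97 ± 0.23 for Polr1c and 1.18 ± 0.32 for Polr1e, with adjusted p of 4.49e-07, 1.88e-05, 0.00091 and 0.00333. Of the snoRNP proteins, Fbl differed by 1.49 ± 0.27 and Nop56 by 1.29 ± 0.23 (adjusted p = 3.67e-05 and 2.94e-05), and Nhp2 by 1.54 ± 0.36 and Gar1 by 0.75 ± 0.27 (adjusted p = 0.000967 and 0.0282). The nucleolar proteins Nolc1 and Ddx21 differed by 1.32 ± 0.23 and 1.03 ± 0.22 (adjusted p = 2.6e-05 and 0.000297). In the small subunit class the values were 2.54 ± 0.28 for Rrp9, 1.88 ± 0.30 for Rrp12, 1.83 ± 0.32 for Noc4l, 1.18 ± 0.23 for Utp20, 1.08 ± 0.22 for Heatr1 and 0.54 ± 0.21 for Wdr3. Their adjusted p were 9.31e-09, 8.31e-06, 2.7e-05, 0.000151, 0.000208 and 0.0379 in that order. In the large subunit class Grwd1 (2.21 ± 0.27), Nop2 (1.49 ± 0.22), Pes1 (1.27 ± 0.24), Noc3l (1.27 ± 0.27), Rrp1b (1.14 ± 0.27) and Ftsj3 (1.08 ± 0.21) joined Bop1, with adjusted p of 9.19e-08, 2.15e-06, 7.73e-05, 0.000285, 0.00124 and 9.37e-05. Rrs1 (0.99 ± 0.22), Nip7 (0.98 ± 0.22), Nop16 (0.92 ± 0.21) and Ddx18 (0.92 ± 0.24) completed the 27, with adjusted p of 0.000545, 0.000678, 0.000697 and 0.00297.

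**Figure D2:**
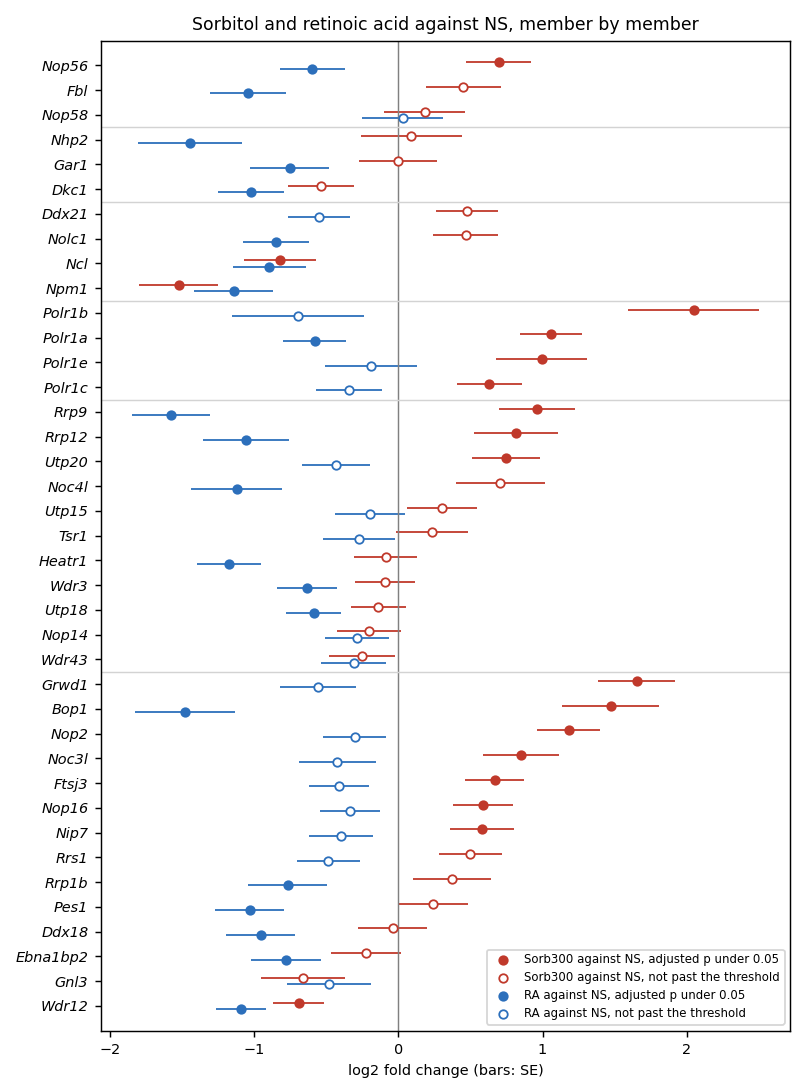
Log2 fold change against NS with sorbitol (red) and retinoic acid (blue) for each member, with bars of 1 SE; filled points have an adjusted p under 0.05. Red points lie right of blue ones for 37 of 39 members; Npm1 is the lowest red point at -1.52, and Rrp9 the lowest blue point at -1.58.

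RNA polymerase I is the enzyme that transcribes the ribosomal RNA genes, and the 4 members that encode its subunits rose with sorbitol, as they did without sorbitol library 1. Of 4 further subunit genes outside the member list, Cd3eap rose as well, while Znrd1 (log2 fold change 0.53), Twistnb (-0.09) and Polr1d (-0.32) did not pass. Polr1a encodes its largest subunit. It stood at 135, 100.3 and 106 CPM in NS, 194, 252 and 266 CPM in Sorb300 and 78.8, 86.5 and 63.1 CPM in RA. Each sorbitol library lay above each NS library, and each RA library below. Polr1a was 2.08-fold higher with sorbitol (log2 fold change 1.06 ± 0.22, adjusted p = 0.00035) and 1.5-fold lower with retinoic acid (-0.58 ± 0.22, adjusted p = 0.0471). The call with retinoic acid was lost whichever of the 6 libraries was left out, with an adjusted p of up to 0.267 (without NS library 1). Polr1b encodes the second largest subunit, and stood at 27.6, 18.9 and 9.45 CPM in NS against 46.3, 95.0 and 89.6 CPM in Sorb300. The groups did not overlap and sorbitol library 1 was the lowest of its group. Polr1b was 4.14-fold higher with sorbitol (log2 fold change 2.05 ± 0.45, adjusted p = 0.000827), or 2.31 ± 0.48 without sorbitol library 1, and stood at 12.2, 10.2 and 11.6 CPM in RA, where its log2 fold change of -0.70 ± 0.46 did not pass (adjusted p = 0.277). Polr1e and Polr1c rose by 0.99 ± 0.32 (adjusted p = 0.0163) and 0.63 ± 0.23 (adjusted p = 0.0321) on the log2 scale with sorbitol. Polr1c encodes a subunit shared with RNA polymerase III. The call of Polr1e was lost without NS library 2, NS library 3 or sorbitol library 2 (adjusted p up to 0.115), and that of Polr1c without any of those or sorbitol library 3 (up to 0.176). Summed over the 4 genes, NS held 360 ± 65.2 CPM, RA 268 ± 38.3 and Sorb300 675 ± 175, of which sorbitol library 1 had 473 and libraries 2 and 3 had 771 and 781.

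Among the assembly factors of the small subunit, 3 of 11 rose with sorbitol, 0 fell, and 6 fell with retinoic acid. Rrp9 encodes a protein of the U3 snoRNP, the particle that starts the cutting of the small subunit precursor. It stood at 134, 127 and 120 CPM in NS, 125, 312 and 306 CPM in Sorb300 and 45.4, 45.05 and 37.5 CPM in RA. Sorbitol library 1 was within the NS range, the other 2 were over 2-fold above it, and the RA libraries were all below. Rrp9 was 1.95-fold higher with sorbitol (log2 fold change 0.96 ± 0.26, adjusted p = 0.00534) and 2.98-fold lower with retinoic acid (-1.58 ± 0.27, adjusted p = 5.51e-05). The sorbitol value was 1.28 ± 0.24 without sorbitol library 1 and missed the threshold without sorbitol library 2 (adjusted p = 0.0596). Utp20 belongs to the early small subunit assembly. It stood at 103, 60.8 and 57.7 CPM in NS, 157, 101 and 112 CPM in Sorb300 and 64.4, 54.9 and 44.1 CPM in RA. Library 1 was the highest in each of these groups, and NS library 1 lay just inside the sorbitol range. The sorbitol difference of 0.75 ± 0.23 (adjusted p = 0.0142) was lost without NS library 2, NS library 3 or sorbitol library 1 (adjusted p up to 0.0918). Heatr1, a factor that also takes part in transcription by RNA polymerase I, stood at 175, 155 and 155 CPM in NS, 81.0, 79.6 and 55.1 CPM in RA and 167, 137 and 152 CPM in Sorb300. The RA libraries lay well below NS while sorbitol overlapped NS. It was 2.25-fold lower with retinoic acid (-1.17 ± 0.22, adjusted p = 0.000191). Rrp12, which acts in export of the subunits, rose by 0.82 ± 0.29 with sorbitol (adjusted p = 0.0322) and was -1.06 ± 0.30 with retinoic acid (adjusted p = 0.0091). Its sorbitol call was lost without NS library 2 or 3 or sorbitol library 2 or 3 (adjusted p up to 0.201), and its other call without NS library 1 (adjusted p = 0.0677). Noc4l, Utp18 and Wdr3 also fell with retinoic acid, by 1.12, 0.59 and 0.63 on the log2 scale. These calls were lost without NS library 1 or RA library 3 for Noc4l, without NS library 2 or 3 or RA library 3 for Utp18, and without any NS library or RA library 3 for Wdr3 (adjusted p up to 0.0522, 0.133 and 0.154). In contrast, Nop14, Tsr1, Utp15 and Wdr43 passed in neither comparison. Noc4l was 0.71 ± 0.31 with sorbitol (adjusted p = 0.0809), or 0.98 ± 0.31 without sorbitol library 1 (adjusted p = 0.0135).

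Among the assembly factors of the large subunit, 7 of 14 rose and 1 fell with sorbitol, and 6 fell with retinoic acid. Grwd1 is a nucleolar histone-binding protein that acts in assembly of the large subunit. It stood at 108, 71.8 and 64.7 CPM in NS, 126, 318 and 327 CPM in Sorb300 and 58.6, 62.8 and 45.2 CPM in RA. Each sorbitol library lay above each NS library, library 1 narrowly. Grwd1 was 3.15-fold higher with sorbitol (log2 fold change 1.65 ± 0.27, adjusted p = 1.87e-05), or 1.98 ± 0.23 without sorbitol library 1, and did not pass with retinoic acid (-0.56 ± 0.26, adjusted p = 0.122). Nop2, a methyltransferase of the large subunit RNA, stood at 133, 116 and 91.5 CPM in NS, 183, 313 and 276 CPM in Sorb300 and 99.1, 95.7 and 80.7 CPM in RA. The sorbitol libraries were again all above NS, and RA overlapped NS. Its sorbitol difference was 1.18 ± 0.22 (2.27-fold, adjusted p = 0.0001). Ftsj3, Nip7, Nop16 and Noc3l, which act on precursors of the large subunit, rose by 0.58 to 0.85 on the log2 scale with sorbitol. Each of those 4 calls was lost without some single library. That held for Ftsj3 without NS library 2 (adjusted p = 0.0816), and for Noc3l without NS library 1 or sorbitol library 3 (up to 0.117). Nop16 was lost without NS library 2 or 3 or sorbitol library 2 or 3 (adjusted p up to 0.158), and Nip7 without any NS library or sorbitol library 2 or 3 (up to 0.221).

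Pes1, Bop1 and Wdr12 encode the 3 proteins of the PeBoW complex, which is needed to mature the large subunit RNA. They differed among themselves with sorbitol, while all of them were lower in RA than in NS. Wdr12 stood at 210, 205 and 238 CPM in NS, 152, 118 and 133 CPM in Sorb300 and 98.8, 101 and 106 CPM in RA. The 3 groups did not overlap, with NS highest and RA lowest. Wdr12 was 1.62-fold lower with sorbitol (-0.69 ± 0.17, adjusted p = 0.00272), a call lost, like most sorbitol calls, in a fit of those 2 groups alone. It was 2.13-fold lower with retinoic acid (-1.09 ± 0.18, adjusted p = 2.45e-05). Bop1 stood at 59.2, 51.7 and 52.7 CPM in NS, 69.1, 195 and 191 CPM in Sorb300 and 19.3, 24.3 and 15.4 CPM in RA. Here sorbitol was the highest group and RA the lowest, again without overlap. Bop1 was 2.78-fold higher with sorbitol (1.47 ± 0.34, adjusted p = 0.00109), or 1.82 ± 0.32 without sorbitol library 1, and 2.79-fold lower with retinoic acid (-1.48 ± 0.35, adjusted p = 0.00199). Pes1 stood at 425, 361 and 443 CPM in NS, 280, 582 and 594 CPM in Sorb300 and 166, 249.2 and 186 CPM in RA. Its sorbitol libraries fell on both sides of NS, and its RA libraries were all below. Pes1 was 2.04-fold lower with retinoic acid (-1.03 ± 0.24, adjusted p = 0.00185) and was 0.24 ± 0.24 with sorbitol (adjusted p = 0.462). Against ND, which also lacked LIF, neither Bop1 (-0.84 ± 0.34, adjusted p = 0.0883) nor Pes1 (-0.62 ± 0.24, adjusted p = 0.0675) passed in RA, while Wdr12 did. The ND libraries of Bop1 and Pes1 were all below NS, without a call. Ddx18, Ebna1bp2 and Rrp1b fell by 0.96, 0.78 and 0.77 with retinoic acid on the log2 scale. Ebna1bp2 was lost without NS library 1 or 3 or RA library 2 or 3 (adjusted p up to 0.123), and Rrp1b without NS library 1 or 2 or RA library 1 or 3 (up to 0.429). Gnl3, known as nucleostemin and named for its high level in stem cells, passed in neither comparison. Gnl3 stood at 402, 405 and 325 CPM in NS and 389, 137 and 188 CPM in Sorb300, and without sorbitol library 1 its log2 fold change was -1.22 ± 0.29 (adjusted p = 0.00136).

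Besides Wdr12, Npm1 and Ncl were the members called lower with sorbitol. They encode nucleophosmin and nucleolin, abundant nucleolar RNA-binding proteins that also have roles outside ribosome production. Npm1 stood at 2317, 3527 and 4321 CPM in NS, 1981, 714 and 837 CPM in Sorb300 and 1507, 1684 and 1413 CPM in RA. All sorbitol and all RA libraries lay below NS, and sorbitol library 1 was the closest to it. Npm1 was 2.88-fold lower with sorbitol (-1.52 ± 0.28, adjusted p = 8.31e-05), or -2.13 ± 0.26 without sorbitol library 1, and 2.21-fold lower with retinoic acid (-1.14 ± 0.27, adjusted p = 0.00245). Ncl stood at 2388, 3599 and 2939 CPM in NS, 2704, 1088 and 1258 CPM in Sorb300 and 1787, 1610 and 1401 CPM in RA. Sorbitol library 1 was inside the NS range and libraries 2 and 3 were below every NS and RA library. The sorbitol difference of Ncl was -0.82 ± 0.25 (adjusted p = 0.0125), or -1.35 ± 0.24 without sorbitol library 1, and the call was lost without NS library 2, sorbitol library 2 or sorbitol library 3 (adjusted p up to 0.0936). With retinoic acid Ncl was 1.86-fold lower (-0.90 ± 0.25, adjusted p = 0.00903), a call lost without NS library 2 (adjusted p = 0.0803). Npm1 has near-identical copies elsewhere in the mouse genome, so its counts are uncertain as far as reads could be shared with them.

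The other 2 nucleolar proteins of this class were not called with sorbitol. Nolc1, a chaperone that binds snoRNPs, stood at 320, 202 and 202 CPM in NS, 351, 313 and 336 CPM in Sorb300 and 150, 150 and 103 CPM in RA. It fell with retinoic acid (-0.85 ± 0.23, adjusted p = 0.0063), though not without NS library 1 (adjusted p = 0.11) or RA library 3 (adjusted p = 0.0531), and was 0.47 ± 0.23 with sorbitol (adjusted p = 0.113). The helicase gene Ddx21 was 0.48 ± 0.22 with sorbitol and -0.55 ± 0.22 with retinoic acid, short of the threshold in both (adjusted p = 0.0883 and 0.0584), and was 2.04-fold higher with sorbitol than with retinoic acid (adjusted p = 0.000297).

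**Figure D3:**
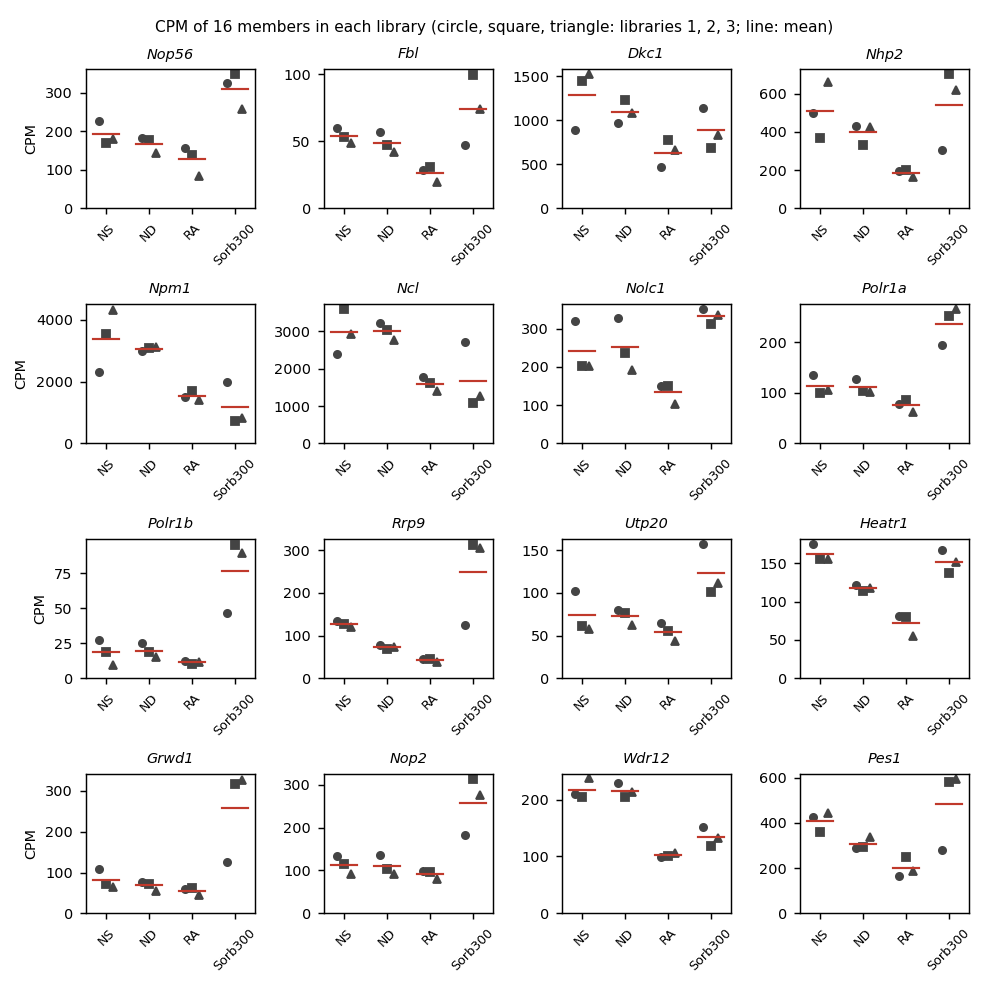
CPM of 16 members (1 panel each) in each library of NS, ND, RA and Sorb300; circles, squares and triangles are libraries 1, 2 and 3 and red lines are group means. Sorbitol library 1, the circle, lies apart from the other 2 in the panels of Npm1, Ncl, Rrp9, Grwd1 and Pes1, and the RA libraries lie below all NS libraries for Wdr12, Heatr1 and Nhp2.

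Of the 6 core proteins of the snoRNPs 5 fell with retinoic acid, and 1 rose with sorbitol. Fbl encodes fibrillarin, the box C/D methyltransferase. It stood at 60.2, 53.6 and 48.5 CPM in NS, 28.9, 30.6 and 19.6 CPM in RA and 47.6, 99.8 and 74.4 CPM in Sorb300. All RA libraries lay below NS, and the sorbitol libraries spanned it. Fbl was 2.06-fold lower with retinoic acid (-1.04 ± 0.27, adjusted p = 0.00413). With sorbitol it was 0.45 ± 0.26 (adjusted p = 0.191), or 0.69 ± 0.26 without sorbitol library 1 (adjusted p = 0.0367). Nop56, a core box C/D protein, stood at 226, 169 and 181 CPM in NS, 326, 348 and 259 CPM in Sorb300 and 158, 139 and 85.1 CPM in RA. The 3 groups did not overlap. Nop56 rose with sorbitol (0.70 ± 0.22, adjusted p = 0.0173) and fell with retinoic acid (-0.60 ± 0.22, adjusted p = 0.0492). Neither call held in every fit that left out 1 library. The first was lost without NS library 2 or 3 or sorbitol library 2 (adjusted p up to 0.0814). The second was lost without any NS library, RA library 2 or RA library 3 (adjusted p up to 0.28). Nop58, the partner of Nop56, passed in neither comparison. Nop58 stood at 902, 309 and 347 CPM in Sorb300 against 346, 548 and 479 CPM in NS, so that sorbitol library 1 was above every NS library, library 2 below them and library 3 level with the lowest.

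All 3 box H/ACA genes fell with retinoic acid and 0 of 3 were called with sorbitol. Dkc1 encodes dyskerin, the pseudouridine synthase, which is also part of telomerase. It stood at 889, 1447 and 1528 CPM in NS, 471, 773 and 658 CPM in RA and 1136, 689 and 839 CPM in Sorb300. The RA libraries were all below NS, and the sorbitol libraries overlapped its lowest. Dkc1 was 2.03-fold lower with retinoic acid (-1.02 ± 0.23, adjusted p = 0.00141) and was -0.54 ± 0.23 with sorbitol (adjusted p = 0.074), or -0.76 ± 0.25 without sorbitol library 1 (adjusted p = 0.0154). Nhp2, which binds the guide RNAs of the particle, stood at 501, 368 and 658 CPM in NS, 195, 201 and 165 CPM in RA and 306, 700 and 621 CPM in Sorb300. RA was below NS throughout, while sorbitol reached both below and above it. Nhp2 was 2.72-fold lower with retinoic acid (-1.45 ± 0.36, adjusted p = 0.00342). Gar1 fell by 0.75 ± 0.27 on the log2 scale (adjusted p = 0.041), a call lost in 5 of the 6 fits that left out 1 library (adjusted p up to 0.269) and kept without NS library 2.

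Npm1 and Ncl weighed heavily in the summed level of the members. Over all 39 the sum was 14371 ± 1408 CPM in NS, 13588 ± 605 in ND, 8216 ± 945 in RA and 12200 ± 1722 in Sorb300. Npm1 and Ncl together made 43.9% of that sum in NS, 38.2% in RA and 22.6% in Sorb300. Without them, a split chosen after their values were seen, the 37 other members summed to 8008 ± 202 CPM in NS, 7524 ± 442 in ND, 5082 ± 681 in RA and 9340 ± 236 in Sorb300. The sorbitol libraries, at 9461, 9068 and 9491 CPM, all lay above the NS libraries, at 8070, 7782 and 8172 CPM, and the RA libraries, at 5207, 5691 and 4347 CPM, all lay below. Sorbitol library 1 did not stand apart in this sum of 37, but it did in the sum of Npm1 and Ncl. Single members among the 37 still deviated in it, in both directions. Gnl3 and Nop58 were over 2-fold higher in library 1, and Bop1, Grwd1, Nhp2, Pes1, Rrp12 and Rrp9 over 2-fold lower. The small SD of the sum thus does not describe single members.

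**Figure D4:**
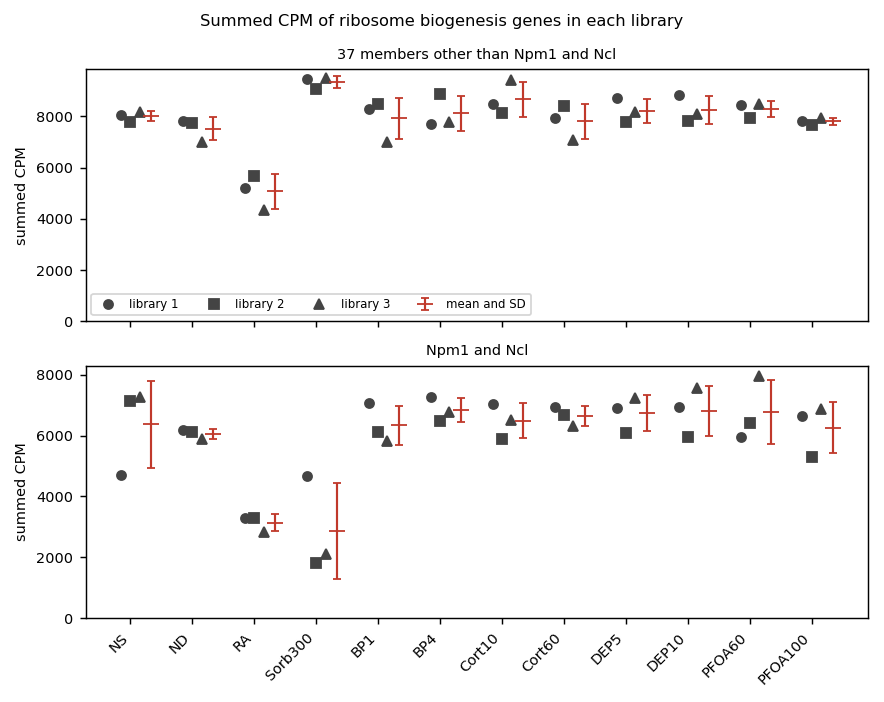
Summed CPM in each library of the 12 conditions, for the 37 members other than Npm1 and Ncl (top) and for Npm1 and Ncl (bottom); red marks show mean and SD of 3 libraries. In the top panel RA (5082 ± 681 CPM) is below and Sorb300 (9340 ± 236 CPM) above NS (8008 ± 202 CPM); in the bottom panel RA and sorbitol libraries 2 and 3 are low.

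Removal of LIF without retinoic acid gave no called member in the fit that left library numbers aside. In ND against NS 0 of 39 passed, 2 had an unadjusted p under 0.05, and DESeq2 also called 0, where edgeR called 0.259% of all genes higher and 0.933% lower (1.19% together). The median member log2 fold change was -0.05. Rrp9 came closest: it stood at 79.1, 69.5 and 73.5 CPM in ND, all below its NS libraries, with a log2 fold change of -0.78 ± 0.26 (adjusted p = 0.155). Same-numbered libraries varied together in this comparison, and in a fit blocked on that number Rrp9 was called at -0.78 ± 0.23 (adjusted p = 0.0471), the 1 member to pass. Of all genes, that fit called 212 higher and 340 lower, against 35 and 126 without the block. Heatr1, at 122, 114 and 117 CPM, was also below NS in each library (-0.46 ± 0.22, adjusted p = 0.373). In all, 6 members had ND libraries wholly below NS and 0 wholly above, where 11.6% and 11.7% of all genes did so.

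RA was also compared with ND, which shares with it the absence of LIF. Of the members 15 were lower in RA and 0 higher, where 10.1% of all genes were called lower and 8.05% higher, and the median was -0.59 against -0.04 over all genes. For 25 members the RA libraries were all below the ND libraries, as for 23.7% of all genes. Wdr12 stood at 230, 204 and 213 CPM in ND and differed by -1.08 ± 0.18 (adjusted p = 3.06e-05), and Npm1 by -1.0 ± 0.27 (adjusted p = 0.00908). Only these 2 of the 15 calls held in every fit that left out 1 library. The count of 15 fell to 3 without ND library 1, 9 without ND library 2, 7 without ND library 3, 7 without RA library 1 and 4 without RA library 3. It was 9 with the size factors of DESeq2, and was 23 in a fit of these 2 groups alone.

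Against ND, sorbitol gave 17 higher and 4 lower members, where 19.3% and 18.5% of all genes were called so. The lower ones were Gnl3, Ncl, Npm1 and Wdr12. Grwd1 was 1.91 ± 0.27 (adjusted p = 1.15e-06), Rrp9 1.74 ± 0.27 and Bop1 2.12 ± 0.34 on the log2 scale. Without sorbitol library 1 the counts were 17 higher and 6 lower, with Nop58 and Wdr43 added to the lower ones, and these 3 values were 2.23, 2.05 and 2.46.

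None of the 39 members was called in any of the 8 toxicant conditions by edgeR or by DESeq2, and 0 or 1 had an unadjusted p under 0.05 in each. Among all genes edgeR called 0.00741% higher and 0.0667% lower with 60 µM PFOA (0.0741% together) and 0% in the other 7. Median member log2 fold changes ran from -0.13 with 100 µM PFOA to 0.07 with 10 µM cortisol. The median SE of a member was about 0.24. With so few genes called, a member needed a smaller unadjusted p to pass here than with sorbitol. In the edgeR test Ddx18 with 10 µM DEP had an unadjusted p of 0.0040 and did not pass, while Polr1c with sorbitol passed at 0.00846. Whether a difference of the size seen with sorbitol would have passed in these conditions was not tested. Bop1 was the lowest member with 1 µM BP, 4 µM BP, 60 µM cortisol and 5 µM DEP, at -0.62, -0.38, -0.85 and -0.61, with an adjusted p of 0.773 at its smallest. Ddx18 was the lowest with 10 µM DEP at -0.74, and Polr1b with both doses of PFOA at -0.39 and -0.58. All 8 comparisons use the same NS libraries. Over the 24 toxicant libraries Npm1 ran from 2661 to 4430 CPM and Grwd1 from 52.1 to 89.3 CPM. All 3 Sorb300 libraries lay outside both ranges, below that of Npm1 and above that of Grwd1. Not all members called with sorbitol were so separate. Sorbitol library 1 lay inside the toxicant range for Rrp9 (125 CPM, range 85.6 to 182), Bop1 (69.1, 19.7 to 78.8) and Ncl (2704, 2238 to 3562).

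Other genes of ribosome production were described by the same counts. They were 113 tested genes of RNA polymerase I and its factors, snoRNP assembly, the small and large subunit and the RNA exosome. With sorbitol 34 rose and 16 fell, with a median log2 fold change of 0.21. With retinoic acid 1 rose and 46 fell, with a median of -0.53. Sorbitol exceeded retinoic acid for 64 and was below it for 5, and ND and the toxicants gave 0 calls. Of the sorbitol calls, 21 of the 34 higher and 11 of the 16 lower held in every fit that left out 1 library. With retinoic acid 24 of the 46 lower held, and between the treatments 48 of 64 and 3 of 5. Of all genes, 15.1% and 15.2% were called higher and lower with sorbitol. Without sorbitol library 1 the sorbitol counts were 36 higher and 32 lower against NS and 60 higher and 22 lower against RA. The share of all genes called without that library is not given here.

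Named by smallest adjusted p within each list, the polymerase I subunit gene Cd3eap (log2 fold change 1.91 ± 0.47) and its activator Ubtf (0.86 ± 0.23) rose with sorbitol, and the initiation factor Rrn3 (-1.02 ± 0.20) and the subunit gene Polr1d (-0.86 ± 0.21) fell with retinoic acid. Tcof1, on the snoRNP list, encodes treacle, a nucleolar protein that promotes ribosomal RNA transcription. It stood at 483 ± 77.1 CPM in NS, 1078 ± 376 in Sorb300 and 228 ± 28.6 in RA, and sorbitol library 1 (645 CPM) was below the other 2. The gene rose by 1.16 ± 0.21 with sorbitol (adjusted p = 8.19e-05) and was -1.08 ± 0.21 with retinoic acid (adjusted p = 0.000267). The snoRNP assembly genes Ruvbl1 and Ruvbl2, a pair of helicases, fell with retinoic acid (-1.18 ± 0.24 and -1.57 ± 0.27), while Nufip1 fell (-1.13 ± 0.23) and Pih1d1 rose (1.24 ± 0.26) with sorbitol. For the small subunit, Imp4 rose 4.65-fold (2.22 ± 0.34) and Bysl 2.56-fold (1.36 ± 0.23) with sorbitol, whereas Utp11l fell 3.24-fold (-1.70 ± 0.21, adjusted p = 3.97e-07). Utp14a, Wdr46 and Wdr36 fell with retinoic acid, by 1.76, 1.31 and 1.10 on the log2 scale. For the large subunit, Senp3 rose (1.36 ± 0.24) and Gtpbp4 (-1.20 ± 0.20) and Gnl2 (-1.09 ± 0.19) fell with sorbitol, and Nle1 (-1.68 ± 0.28), Npm3 (-1.57 ± 0.28) and Sdad1 (-0.94 ± 0.21) fell with retinoic acid. In the exosome, the RNA-degrading complex that trims ribosomal RNA precursors, Exosc5 rose (1.37 ± 0.30) and Exosc7 (-1.21 ± 0.25) and Exosc8 (-0.80 ± 0.18) fell with sorbitol. Exosc2 (-1.28 ± 0.22), Exosc5 (-1.16 ± 0.31) and Exosc8 (-0.63 ± 0.18) fell with retinoic acid, and the cofactor gene C1d was the 1 gene of the 113 that rose (0.74, adjusted p = 0.0416). Of the genes in this paragraph, the calls with retinoic acid were lost without NS library 3 for Polr1d, without RA library 3 for Exosc8, and in 4 and 5 of 6 such fits for C1d and for Ubtf, whose change was -0.62 ± 0.23.

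The Myc family, transcription factors that bind the letters CACGTG (the canonical E-box) together with Max and are opposed by Mxd, Mnt and Mga proteins, was measured by 11 genes. With sorbitol 4 rose and 1 fell. Max stood at 93.1, 78.5 and 74.8 CPM in NS and 197, 229 and 196 CPM in Sorb300, 2.53-fold higher (log2 fold change 1.34 ± 0.23, adjusted p = 3.6e-05). Myc was counted 8, 0 and 1 times in the NS libraries, or 2.66, 0 and 0.249 CPM, against 14.5, 12.1 and 11.0 CPM in Sorb300. All sorbitol libraries were above NS, and the fitted value of 3.79 ± 1.17 (adjusted p = 0.0135) depends on the near absence of counts in NS. The call was lost without NS library 2 or NS library 3. Mlx (0.71 ± 0.22) and Mnt (0.89 ± 0.29) also rose and Mxd3 fell (-1.66 ± 0.51). Mlx was lost without NS library 3 or sorbitol library 2 or 3, Mnt without NS or sorbitol library 2 or 3, and Mxd3 without NS library 3 or sorbitol library 1 or 3. Mycn, another family member, spread from 17.2 to 148 CPM in NS and was 47.1, 50.6 and 51.9 CPM in Sorb300. Its log2 fold change of -0.46 ± 1.00 did not pass with sorbitol, nor did -1.47 ± 1.02 with retinoic acid. Mga (-0.41), Mxd1 (1.26), Mxd4 (0.25), Mxi1 (-0.34) and Mycl1 (0.40) were not called with sorbitol. With retinoic acid Mxd3 alone was called, lower (-1.38 ± 0.49, adjusted p = 0.0372, lost in 5 of 6 fits that left out 1 library), and the values of the others were Max -0.10, Mga -0.14, Mlx -0.54, Mnt 0.29, Mxd1 1.12, Mxd4 0.81, Mxi1 -0.50, Myc 2.05 and Mycl1 -0.56.

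Promoters were searched for CACGTG, which reads the same on both strands, in RefSeq windows of the GRCm38.p6 build from 250 bases before to 50 after each annotated start. Windows were matched for 34 of the 39 members. Those of 7 held the motif, 20.6% of the matched members, against 8.09% of all genes in that table and 17.5% of the 97 other genes of ribosome production that matched. The 7 were Grwd1, Nop2, Pes1, Tsr1, Utp18, Utp20 and Wdr43, so members that rose with sorbitol, fell with retinoic acid or passed in neither were all among them. The following 30 bases are shown 5′ to 3′ on the strand of the gene because these 4 hold the motif and are among the members with values above; capitals mark the motif. Grwd1 lies at chr7:45830740-45830769 on the minus strand, Nop2 at chr6:125131811-125131840 on the plus strand, Pes1 at chr11:3963965-3963994 on the plus strand and Utp20 at chr10:88826765-88826794 on the minus strand.
Grwd1: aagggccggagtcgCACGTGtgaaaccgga
Nop2: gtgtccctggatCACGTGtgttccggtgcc
Pes1: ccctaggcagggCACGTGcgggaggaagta
Utp20: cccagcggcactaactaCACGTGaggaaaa
In Nop2 the motif starts 60 bases before the annotated start, and in Pes1, Grwd1 and Utp20 it starts at bases 3, 35 and 38 after it. A match is a string of letters only, and no binding was measured in these samples.

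Several members carry snoRNA genes in their introns, a property that did not enter their choice. In the GENCODE M21 annotation 7 of the 40 symbols enclosed a snoRNA gene on their own strand, 17.5% against 1.27% of protein-coding genes: Dkc1, Gnl3, Ncl, Nop56, Nop58, Tsr1 and Wdr43. With sorbitol 1 of these 7 rose (Nop56) and 1 fell (Ncl), with a median log2 fold change of -0.25, against 14 and 2 of the 32 other members with a median of 0.49. Against retinoic acid the medians were 0.15 and 1.11, and 1 of 7 and 26 of 32 were called higher with sorbitol. The difference between these sets was not tested. Whether counting used strand is not given in the sources used here, so reads of hosts and of genes inside or opposite them could be shared.

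Markers of cell types moved with the same treatments. The 9 embryonic stem cell markers summed to 3365 to 4143 CPM in NS, 3325 to 3931 in Sorb300, 1991 to 2703 in ND and 343 to 630 in RA, and all 9 fell with retinoic acid. In Sorb300 1 of them rose (Utf1) and 1 fell (Tdgf1). Extraembryonic endoderm markers (15) summed to 1165 to 1473 CPM in NS, 2159 to 4260 in Sorb300 and 2497 to 4428 in RA, and trophoblast markers (10) to 343 to 421, 525 to 1286 and 1101 to 1986 CPM in the same order. Of the 14 and 9 tested, 6 and 7 rose and 1 and 0 fell with sorbitol, and 12 and 5 rose and 0 and 1 fell with retinoic acid. Fibroblast and feeder markers (10) summed to 55.2 to 108 CPM in NS, 30.5 to 43.6 in Sorb300 and 410 to 512 in RA, where Col1a2 was at 252, 337 and 284 CPM. Of the 8 tested, 1 rose and 2 fell with sorbitol and 6 rose and 1 fell with retinoic acid. In Sorb300 Dcn, Lum and Postn of that list had no count. Of 14 genes of DNA replication and mitosis 6 fell and 0 rose with sorbitol, and 9 fell and 0 rose with retinoic acid. Without sorbitol library 1 the sorbitol counts became 4 higher and 8 lower for these 14, 1 higher and 2 lower of the stem cell markers, 6 and 1 of the extraembryonic endoderm, 8 and 0 of the trophoblast and 0 and 1 of the fibroblast markers. The part of these shifts in the levels of the members was not tested.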

How the data were processed

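The deposited tables, 11 in number, hold raw read counts per gene for 1 condition and NS, with the same NS columns in each; these counts are the authors', with no normalization. The submitters' processing notes list the build mm9 and, as tools, edgeR, HTSeq, STAR and CASAVA 1.8.2; settings, and whether strand was used, are not given in these sources. Per the file headers the tables also give the authors' log2 fold change and FDR (an adjusted p-value), used for 1 count. In the authors' deposited table at an FDR under 0.05, 11 members were higher and 3 lower with sorbitol, 15 lower with retinoic acid, and 0 were called in any other condition.

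Genes were filtered with filterByExpr by group, scaled by TMM and fitted in 1 edgeR 4.0.16 model (R 4.3.3) of 12 group means over 36 libraries, with 24 residual degrees of freedom and a common biological coefficient of variation of 0.306. Contrasts were tested with the robust quasi-likelihood test and adjusted by Benjamini-Hochberg over the 13498 genes, threshold 0.05. Errors of log2 fold changes are SE, and errors of CPM levels are SD. CPM use TMM-scaled totals, and 3 counts equal 0.412 to 1.62 CPM. Chi-square per degree of freedom between replicates was 5.15 to 63.0, above counting error. The procedure was tested on simulated data with the same spread in every group and no library set apart. That test does not cover a group such as Sorb300, whose library 1 stood apart.

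Full statistics are given for the 2 members of each role class with the smallest adjusted p in each of the sorbitol and retinoic acid comparisons, and for members called against the main direction. Members called between the 2 treatments have log2 fold change, SE and adjusted p, without per-library levels where no other part of the rule picked them. In lists of other genes up to 3 are named, and all of the Myc list. Gnl3 and Nop58, outside that rule, were named after their values were seen. The members, lists and tests were chosen with earlier results of these data known. Same-numbered libraries deviated together (every correlation over 0.1) against NS for ND, for both doses of BP and of DEP and for the lower doses of cortisol and PFOA, and the numbers were taken as pairing there, from the data. Alternatives were other scalings and filters, DESeq2 1.42.0, the block, fits of 2 groups and fits with libraries left out.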

Additional observations from a re-analysis of the deposited data

How the results depend on the processing

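No member's called change reversed under any alternative run. The sorbitol call count of 18 was 6 in a fit of only the 2 groups (5 higher, 1 lower), 10 when library 3 of each group was dropped, and 9 to 21 without 1 library. For retinoic acid, 21 became 11 with raw library totals and 12 to 18 without 1 library. Raw totals move the median of all genes to 0.34 for RA against NS, with calls of 2271 higher and 1031 lower in place of 1390 and 1869. They move it to -0.28 for sorbitol against RA (1893 and 3122 in place of 2787 and 2359). Member medians were then -0.26 and 0.75, 0.10 for ND, and -0.39 for RA against ND, where the median of all genes was 0.16 and calls were 1445 higher and 894 lower in place of 1086 and 1364. RA against ND gave 9 calls with DESeq2 size factors, 6 with raw totals, 8 with no filter, 23 in a fit of only the 2 groups, 7 when library 3 of each group was dropped, and 3 to 11 without 1 library. ND against NS gave 1 call in a fit of only the 2 groups. With raw totals the members summed to 14341 CPM in ND and 9956 in RA. With the TMM scaling but without Npm1 and Ncl, an alternative added after seeing the data, the sums were 8008 (NS), 7524 (ND), 5082 (RA) and 9340 (Sorb300). Apart from what the construction shows (fewer libraries, another scaling), the cause was not tested.

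With the replicate number as a block, 1 member was called in ND (in place of 0), 23 in RA against ND (15), 24 with sorbitol (18), 22 with retinoic acid (21), 32 for sorbitol against RA (27) and 24 for sorbitol against ND (21); the toxicants stayed at 0. Calls over all genes rose too. In ND they were 212 higher and 340 lower in place of 35 and 126, and in RA against ND 1430 and 1864 in place of 1086 and 1364. With sorbitol they were 2536 and 2447 in place of 2044 and 2058, and with retinoic acid 1959 and 2318 in place of 1390 and 1869. In the sorbitol and retinoic acid comparisons, 60 µM cortisol and 100 µM PFOA the lowest same-number correlation was under 0.1, so the numbers were not taken as pairing. It was -0.228 for sorbitol against NS. For RA against NS the correlations were 0.142, 0.0372 and 0.147, and 6 libraries correlated best with their own number, as 6 did for ND against NS. Over all groups 30 of 36 libraries correlated best with their own number. Library numbers 3 had more ribosomal protein reads in 9 groups, NS and the toxicant conditions (16.6% to 19.6% against 11.5% to 15.1%). Library 3 was also the highest in ND (15.2% against 12.6% and 12.7%) and in RA (9.98% against 8.19% and 9.80%), though not in Sorb300.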
